A study of Mus musculus with 9 samples.

Results

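The retinoid genes described here are 8 genes of the uptake, binding, conversion, sensing and breakdown of retinoic acid: Stra6, Crabp2, Dhrs3, Rara, Rarb, Rarg, Rxra and Cyp26b1. They were chosen by gene symbol, and 11 of the 45037 probe sets tested carry one of these symbols; by gene they are 8 of 18193. For each gene the probe set with the highest mean over 9 arrays stood as the main one, which was the only use of measured values in choosing probe sets. The genes themselves were put together with earlier results of these arrays known, among them the fall of Crabp2 with purified TGFβ, so Crabp2 against Tconv is given as a description.

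Expression was measured on Affymetrix Mouse Genome 430 2.0 arrays in 3 groups of 3 biological replicates, all from CD4 T cells on a C57BL/6 background. Tconv are conventional T cells; a treatment note shared by every sample has them receiving TGFβ1, so their culture is not settled by the labels. The purTGFβ_iTreg group are induced regulatory T cells (iTreg) made from sorted splenic CD4+EGFP- cells of Foxp3EGFP mice, a reporter of the regulatory T cell factor Foxp3. Their culture lasted 72 hours, with anti-CD3 at 2.5 µg/ml, IL2 at 100 U/ml, anti-CD28 at 1 µg/ml and purified TGFβ1 at 5 ng/ml. The pltTGFβ_iTreg group differed in that TGFβ came from freeze-thaw lysates of wild-type mouse platelets. No TGFβ dose is listed here for that group. In every comparison of the iTreg groups, the source of TGFβ, its dose and anything else in the lysate cannot be told apart. The labels used here give no age, name no retinoid as an addition to either culture, and leave unsaid whether EGFP+ iTreg were isolated for the RNA. Nor do they say how many animals stand behind the 3 replicates.

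Retinoic acid is made from vitamin A. STRA6 takes retinol into cells, retinol is oxidised to retinaldehyde and then to retinoic acid, DHRS3 turns retinaldehyde back into retinol, and CYP26 enzymes degrade the acid. CRABP2 carries retinoic acid to its receptors in the nucleus, where an RAR (RARα, RARβ or RARγ) and an RXR bind paired half-sites in DNA. Several of these genes, including Rarb, Cyp26b1, Dhrs3 and Stra6, are themselves known to be induced by the acid. In gut-associated lymphoid tissue retinoic acid is known to favour TGFβ-driven induction of Foxp3 and to give T cells their gut-homing receptors.

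The DNA element through which these receptors act can be read in the upstream sequence of Rarb, the textbook autoregulated gene. The 250 bases before each RefSeq transcript start (GRCm38.p6) were searched on both strands for the half-site AGGTCA and the variants GGGTCA as well as AGTTCA together with GGTTCA, and for any 2 of these repeated in the same direction with 1, 2 or 5 bases between (the search counts the same letters once as a half-site and once as part of a repeat). Of 32851 windows, 38.6% held a half-site, 0.0883% a repeat with 5 bases between, 0.174% one with 2 and 0.164% one with 1. The Rarb window on chromosome 14 (chr14:16575477-16575726, minus strand) held the repeat with 5 bases between, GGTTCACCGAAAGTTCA, from 53 to 37 bases before the start. It is shown with the repeat in capitals because Rarb, whose values are given further on, carries the element and was not called in any comparison.
Rarb: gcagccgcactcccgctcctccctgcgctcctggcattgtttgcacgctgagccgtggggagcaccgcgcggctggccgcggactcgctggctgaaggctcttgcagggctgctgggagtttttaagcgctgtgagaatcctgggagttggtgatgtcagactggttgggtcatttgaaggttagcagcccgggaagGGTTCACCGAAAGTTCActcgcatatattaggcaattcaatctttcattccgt
Among the other members none of the windows held such a repeat at any of the 3 spacings. Single half-sites stood in 1 of 2 windows of Rxra, 1 of 4 of Rara and 1 of 2 of Rarg, and in none of the windows of Stra6, Dhrs3 and Cyp26b1. The Rxra window that held 3 of them (chr2:27709042-27709291, plus strand) lies inside the gene, before an internal start. The Rarb window printed above also lies inside its gene. Of the genes with half-sites, Rxra (3) was called lower in both iTreg groups and Rarg (1) with platelet TGFβ. Rara (4) and Rarb (3) were not called in any comparison. Of the genes with none, Stra6 was lower in both iTreg groups, and Dhrs3 and Cyp26b1 were not called. Sequence outside these 250 bases was not searched. Whether half-sites go with a change was not tested. The Rxra window is shown with the half-sites in capitals because Rxra was lower in both iTreg groups.
Rxra: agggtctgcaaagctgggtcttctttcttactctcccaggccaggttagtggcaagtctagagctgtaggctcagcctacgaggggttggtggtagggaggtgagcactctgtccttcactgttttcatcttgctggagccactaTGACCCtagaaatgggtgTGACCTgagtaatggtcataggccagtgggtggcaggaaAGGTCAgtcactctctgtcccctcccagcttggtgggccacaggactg
Windows were listed for 7 of the 8 genes and Crabp2 was the other. A match in these letters is a description of the sequence and not a measured binding site.

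**Figure D1:**
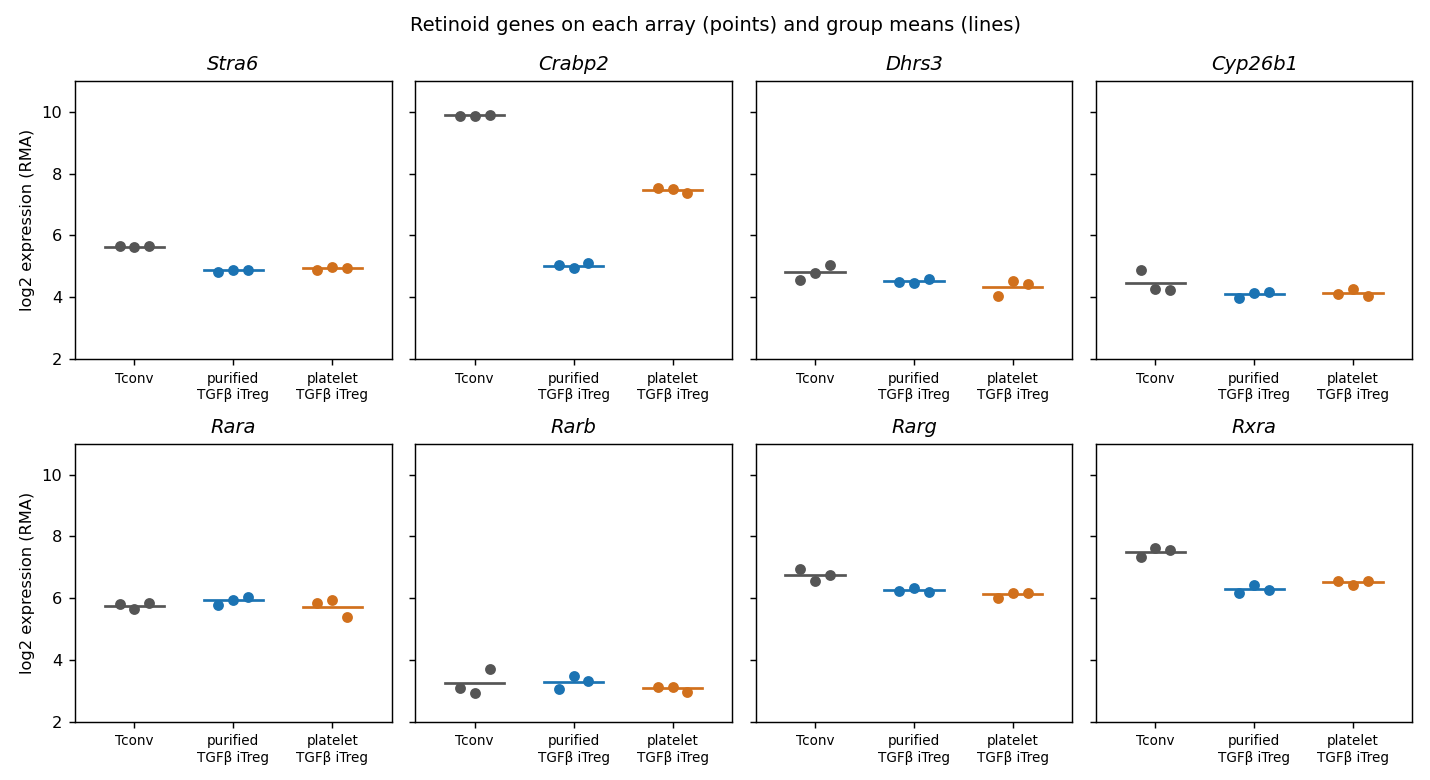
Log2 expression (RMA, vertical axis) of the main probe set of each of the 8 retinoid genes on every array (points) with group means (lines). Crabp2 lies between 9.88 and 9.91 in Tconv, between 4.94 and 5.10 with purified TGFβ and between 7.39 and 7.54 with platelet TGFβ; among the other 7 genes the next widest change is that of Rxra, -1.21.

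The binding gene Crabp2 and the uptake gene Stra6 were both lower in iTreg than in Tconv. Crabp2, the carrier of retinoic acid to the nucleus (chromosome 3, probe set 1451191_at), read 9.88, 9.88 and 9.91 log2 units on the 3 Tconv arrays, 5.03, 4.94 and 5.10 with purified TGFβ and 7.54, 7.52 and 7.39 with platelet TGFβ. The 3 groups did not overlap, and the platelet group lay near the middle of the log2 distance between the others. Relative to Tconv the log2 change was -4.87 ± 0.08 (SE, n = 3 arrays a group), or 29.2-fold lower, with purified TGFβ, and -2.41 ± 0.08, or 5.31-fold lower, with platelet TGFβ. Only 2 of 18193 genes had a more negative change with purified TGFβ, where Crabp2 was in place 3 from the lowest, and with platelet TGFβ it was in place 32.

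Between the iTreg groups Crabp2 was 5.51-fold higher with platelet TGFβ (log2 change 2.46 ± 0.08, 95% interval 2.29 to 2.64, limma adjusted p = 3.46e-08). It stood in place 5 from the highest of 18193 genes in that comparison. The purified-TGFβ arrays of this comparison are those on which the fall of Crabp2 was first seen, so the test is not independent of the choice of the gene. All 19 other settings tried, including leaving out each array, kept Crabp2 called in all 3 comparisons. They reuse the same arrays, so they show how far the calls depend on processing and are no new test of the fall.

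Stra6, the membrane receptor that takes up retinol from its plasma carrier (chromosome 9, probe set 1422723_at), read 5.66, 5.63 and 5.65 in Tconv, 4.83, 4.89 and 4.88 with purified TGFβ and 4.88, 4.99 and 4.94 with platelet TGFβ. All 6 iTreg arrays lay below all 3 Tconv arrays, and the iTreg groups overlapped. Stra6 fell by 0.78 on the log2 scale with purified TGFβ (SE 0.07, limma adjusted p = 3.66e-06) and by 0.71 with platelet TGFβ (SE 0.07, adjusted p = 8.66e-06), which is 1.71-fold and 1.63-fold lower. The iTreg groups differed by 0.07 (95% interval -0.09 to 0.23, adjusted p = 0.758). With no detection calls in the table, whether a reading near 5 stood above background was not settled.

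The receptors did not move together. Rxra, the shared partner of the retinoic acid receptors and of several other nuclear receptors (chromosome 2, probe set 1425762_a_at), read 7.33, 7.62 and 7.55 in Tconv, 6.17, 6.43 and 6.28 with purified TGFβ and 6.55, 6.44 and 6.57 with platelet TGFβ. Every Tconv array was above every iTreg array, and all platelet arrays were above all purified ones by a small margin. Rxra fell by 1.21 (SE 0.10, adjusted p = 1.42e-06) with purified TGFβ and by 0.98 (SE 0.10, adjusted p = 8.67e-06) with platelet TGFβ, or 2.31-fold and 1.97-fold.

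A second Rxra probe set, 1454773_at, was also lower in both iTreg groups. It read 6.48, 6.77 and 6.85 in Tconv, 5.45, 5.74 and 5.73 with purified TGFβ and 6.08, 6.24 and 6.13 with platelet TGFβ, with log2 changes from Tconv of -1.06 and -0.55 (adjusted p = 1.36e-05 and 0.00219). The platelet fall was no longer past the fold cutoff with centred array medians (-0.49) or without Tconv replicate 3 (-0.48). The third and dimmest probe set, 1430497_at, read 2.86 to 3.48 over all arrays and was not called in any comparison.

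The Rxra probe sets parted on the comparison of the iTreg groups. The second probe set was called higher with platelet TGFβ (log2 change 0.51 ± 0.12, SE, adjusted p = 0.0232), while the main one was not (0.23 ± 0.10, 95% interval 0.01 to 0.44, adjusted p = 0.304). The call of the second was lost without platelet replicate 2 (0.47), without purified replicate 1 (0.42) and with an unmoderated contrast (adjusted p = 0.105).

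Rarg, the retinoic acid receptor best known from skin and cartilage (chromosome 15, probe set 1419415_a_at), read 6.94, 6.55 and 6.76 in Tconv, 6.24, 6.34 and 6.19 with purified TGFβ and 6.02, 6.18 and 6.17 with platelet TGFβ. The Tconv arrays were again above all iTreg arrays. Rarg fell by 0.63 with platelet TGFβ (SE 0.10, adjusted p = 0.000425). With purified TGFβ its change of -0.49 ± 0.10 (SE, adjusted p = 0.00231) fell just short of the fold cutoff of 0.5, and passed it without Tconv replicate 2 (-0.59), without purified replicate 2 (-0.53) and after quantile normalization (-0.73).

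The other Rarg probe set, 1419416_a_at, read lower on both sets of iTreg arrays and was called in both. Its arrays read 4.88, 5.02 and 5.15 in Tconv, 4.22, 4.31 and 4.12 with purified TGFβ and 4.73, 4.56 and 4.16 with platelet TGFβ, for log2 changes of -0.80 ± 0.13 and -0.53 ± 0.13 (SE, adjusted p = 0.000452 and 0.00712). The platelet call was lost without platelet replicate 3 (-0.37), without Tconv replicate 3 (-0.46) and with centred array medians (-0.48). The iTreg groups were not called different with either Rarg probe set (-0.14 and 0.27, adjusted p = 0.639 and 0.388), and the signs were opposite.

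Rara, the retinoic acid receptor that T cells mainly use (chromosome 11, probe set 1450180_a_at), overlapped between all groups. It read 5.80, 5.65 and 5.84 in Tconv, 5.79, 5.95 and 6.04 with purified TGFβ and 5.84, 5.95 and 5.40 with platelet TGFβ. Its log2 change was 0.17 (95% interval -0.12 to 0.46) and -0.03 (-0.32 to 0.26) from Tconv and -0.20 (-0.49 to 0.09) between the iTreg groups. None of these intervals reaches 0.5 in either direction. The sign against Tconv turned after quantile normalization with purified TGFβ (-0.01) and, with platelet TGFβ, with centred medians (0.02) and without Tconv replicate 3 (0.01) or platelet replicate 3 (0.13).

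Rarb, the receptor whose upstream repeat is printed above (chromosome 14, probe set 1454906_at), read 3.08, 2.93 and 3.71 in Tconv, 3.06, 3.49 and 3.31 with purified TGFβ and 3.14, 3.14 and 2.96 with platelet TGFβ. One Tconv array was the highest of the 9 and the groups overlapped throughout. The log2 changes were 0.05 (95% interval -0.35 to 0.44), -0.16 (-0.55 to 0.24) and, between the iTreg groups, -0.20 (-0.60 to 0.19). Readings this low are near the bottom of the scale, so a change of a transcript below background could not be seen with this probe set.

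Dhrs3 and Cyp26b1 were not called in any comparison. Dhrs3, which reduces retinaldehyde back to retinol (chromosome 4, probe set 1448390_a_at), read 4.57, 4.80 and 5.06 in Tconv, 4.50, 4.46 and 4.59 with purified TGFβ and 4.05, 4.53 and 4.42 with platelet TGFβ. The platelet arrays all lay below the Tconv arrays and the purified ones overlapped them. Neither change was called (-0.29 ± 0.14 and -0.48 ± 0.14, SE, adjusted p = 0.109 and 0.0164), but the platelet change passed the fold cutoff without Tconv replicate 1 (-0.60) and without platelet replicates 2 (-0.58) or 3 (-0.52).

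Cyp26b1, the enzyme that breaks down retinoic acid (chromosome 6, probe set 1460011_at), read 4.89, 4.27 and 4.24 in Tconv, 3.96, 4.13 and 4.17 with purified TGFβ and 4.11, 4.26 and 4.04 with platelet TGFβ. A single Tconv array stood apart from the other 8 readings, which ran from 3.96 to 4.27. The changes of -0.38 ± 0.15 and -0.33 ± 0.15 (SE) from Tconv were not called, and the iTreg groups differed by 0.05 (95% interval -0.29 to 0.39).

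**Figure D2:**
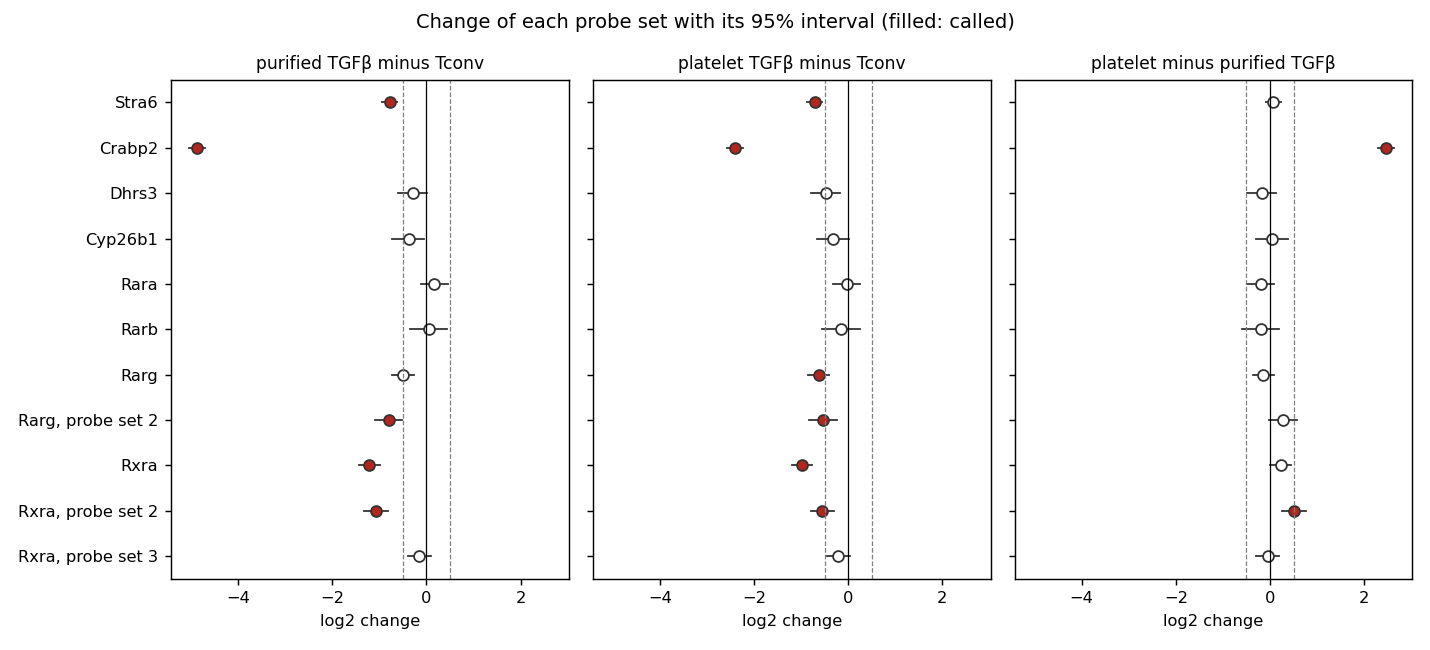
Log2 change (horizontal axis) of all 11 probe sets of the 8 genes in each comparison with 95% intervals from limma; filled points passed an adjusted p under 0.1 and an absolute change above 0.5 (dashed lines). Crabp2 is the one main probe set called between the iTreg groups, at 2.46.

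Counted by main probe set, 3 of the 8 genes were called lower with purified TGFβ (Crabp2, Rxra and Stra6) and 5 were not called; a call needed a limma adjusted p under 0.1 and an absolute log2 change above 0.5, the cutoffs of the authors. Over all genes tested 29.3% were called in that comparison, 14.5% higher and 14.9% lower, and the comparison held the value for which Crabp2 was known beforehand. With platelet TGFβ 4 of the 8 were lower (Rarg in addition) and 4 were not called, against 28.5% of all genes called, 13.9% higher and 14.7% lower. None of the 8 was called higher against Tconv in either. Between the iTreg groups 1 of the 8 was called, Crabp2 (higher), against 4.11% of all genes, 1.54% higher and 2.57% lower. Counted by probe set, 5 of 11 were lower with purified TGFβ (10.4% of all probe sets), 6 of 11 with platelet TGFβ (10.3%), and 2 of 11 were higher with platelet than with purified TGFβ (1.16%). Probe sets of 1 gene share its transcript. The arrays of the groups did not overlap for 5 of the 8 genes in each comparison with Tconv and for 3 between the iTreg groups, against 62.7%, 59.0% and 28.2% of all genes. The median log2 change of the 8 genes was -0.44 with purified TGFβ and -0.55 with platelet TGFβ, where that of all genes was -0.17 and -0.16. Both comparisons share the Tconv arrays. Crabp2 is counted as called in all 3 comparisons, so the limit from its known fall holds for each of these counts.

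Profiles over the 9 arrays were compared after centring each gene on its mean, as a root-mean-square (RMS) difference in log2 units over 16319 named genes.

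The genes nearest to Crabp2 were Cd83, an activation marker of lymphocytes and dendritic cells, at an RMS difference of 0.382, Tg, the gene of thyroglobulin, at 0.419, and Cst7, which encodes the cathepsin inhibitor cystatin F, at 0.442. Each was highest in Tconv, lowest with purified TGFβ and between them with platelet TGFβ. Cd83 averaged 9.62, 5.53 and 7.23 in Tconv, purified and platelet arrays, Tg 9.71, 4.30 and 6.31 and Cst7 11.12, 7.33 and 9.22. The profiles nearest to Rxra were those of Pfkm (0.0469), Pold2 (0.0635) and Chid1 (0.0733). Those nearest to Stra6 were Lcmt1 (0.0436), Tbrg1 (0.0452) and Atf4 (0.0482), and those nearest to Rarg were Slc38a7 (0.0615), Ccdc33 (0.0618) and Igsf9 (0.0683). Of the 16319 genes, 966 lay within an RMS difference of 0.25 of Rxra, 4964 of Stra6 and 6963 of Rarg. None lay that close to Crabp2. The genes named for Rxra, Stra6 and Rarg were thus the nearest of many close ones.

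**Figure D3:**
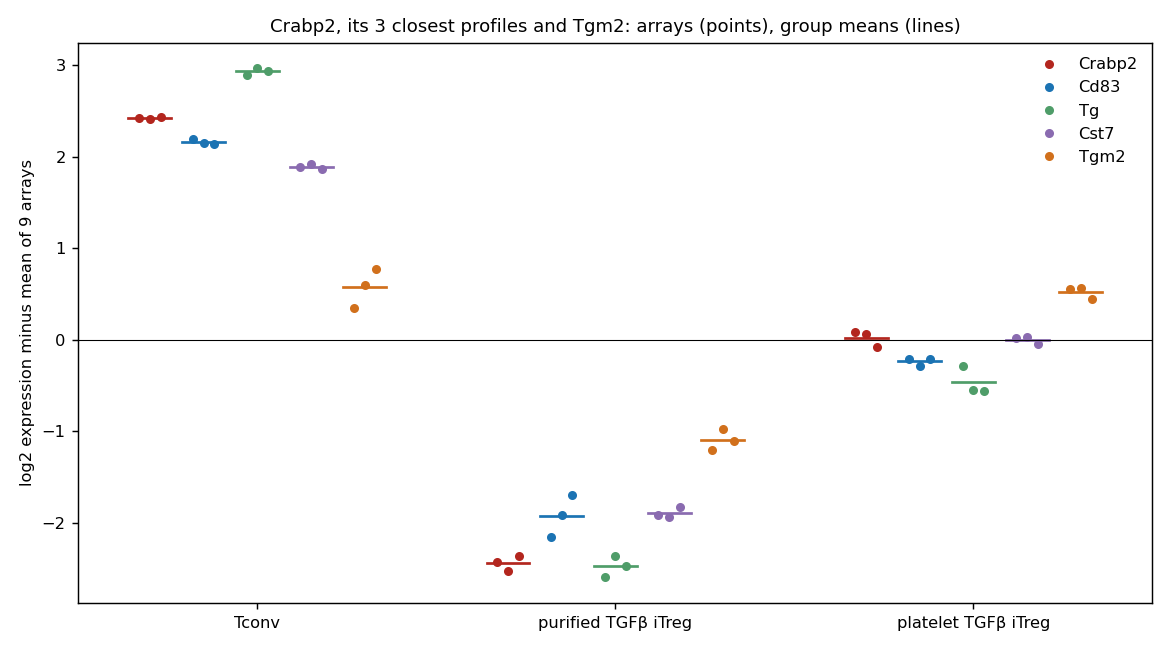
Log2 expression minus the mean of the 9 arrays (vertical axis) of Crabp2, the 3 genes with the closest profiles and Tgm2 on each array (points) with group means (lines). Crabp2, Cd83, Tg and Cst7 are lowest with purified TGFβ and intermediate with platelet TGFβ, while the platelet arrays of the main Tgm2 probe set lie with Tconv.

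The rest of the pathway was read from 5 lists that hold 45 measured genes beside the 8. Of these, 4 were called higher and 10 lower with purified TGFβ, 4 higher and 8 lower with platelet TGFβ, and 2 higher and 1 lower between the iTreg groups. These counts, and those of each list below, stand beside 14.5% of all genes called higher and 14.9% called lower with purified TGFβ. With platelet TGFβ those shares were 13.9% and 14.7%, and between the iTreg groups 1.54% and 2.57%. The median change of the 45 was -0.22, -0.22 and -0.01, where that of all genes was -0.17, -0.16 and 0.01.

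Among carriers and uptake genes 1 of 10 was lower against Tconv in both iTreg groups and none was higher. It was Ttr, which carries thyroid hormone and the retinol-binding protein in plasma, with log2 changes of -0.64 and -0.57, and its 3 other, dim probe sets were not called. Crabp1, the sister carrier of Crabp2, read 2.88 to 2.98 in Tconv, 2.46 to 2.63 on the purified-TGFβ arrays and 2.48 to 2.57 on the platelet ones. Its changes of -0.36 ± 0.08 and -0.39 ± 0.08 (SE) missed the fold cutoff at a level near the bottom of the scale, and between the iTreg groups it differed by -0.03.

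Enzymes of retinoid oxidation and reduction went both ways. With purified TGFβ 1 of 19 was higher and 5 were lower, and with platelet TGFβ 1 was higher and 4 lower. Rdh10, which oxidises retinol to retinaldehyde in the first step towards retinoic acid, read 6.46, 6.34 and 5.97 in Tconv, 7.88, 7.80 and 7.85 with purified TGFβ and 8.07, 8.08 and 8.06 with platelet TGFβ. All iTreg arrays were thus above Tconv, by 1.58 ± 0.11 and 1.81 ± 0.11 (SE, adjusted p = 4.06e-07 and 1.71e-07), and the second probe set rose as well, by 1.33 and 1.76.

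Rdh11, another retinol dehydrogenase family member, did the opposite. It read 9.96, 10.10 and 9.92 in Tconv, 8.56, 8.71 and 8.50 with purified TGFβ and 8.40, 8.22 and 8.18 with platelet TGFβ, and fell by 1.40 and by 1.72 (SE 0.09 in each, adjusted p = 2.4e-07 and 6.36e-08). Its second probe set fell by 0.79 and 1.20. The alcohol dehydrogenase gene Adh1 fell by 1.21 and 1.03, and Retsat, which saturates retinol, fell by 0.79 and 0.91 with its main probe set, while a dim second one was not called (0.24 and 0.19).

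Rdh13 was called lower with purified TGFβ (-0.60) and not with platelet TGFβ (-0.28). Outside the rule for named genes, Adh4 was lower with purified TGFβ (-1.11) and Aldh1a3 with platelet TGFβ (-0.57); both were picked to complete the counts after their values were seen. The change of Aldh1a3 with purified TGFβ was nearly as large (-0.49, not called), its 2 other probe sets were not called (-0.08 and 0.12 with platelet TGFβ), and the mean of its probe sets gave -0.18, not called. Aldh1a1 and Aldh1a2, which like Aldh1a3 encode enzymes of the last step of synthesis, read 2.55 to 3.08 and 3.01 to 3.41 over the 9 arrays and were not called in any comparison. Nor was Cyp26a1, the other measured breakdown enzyme, with changes of -0.08 and -0.29 from Tconv.

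Cofactors of the receptors held the pathway's other rises. With each TGFβ source 3 of 9 partners and cofactors were higher and 2 lower than Tconv. Over all genes 14.5% and 13.9% were higher, and 14.9% and 14.7% lower. Other cofactors went both ways without a call. In Tconv, purified and platelet arrays Hdac3 averaged 9.61, 9.18 and 9.25, Ncoa3 9.02, 8.75 and 8.59, and Ncoa1 6.33, 6.73 and 6.67. After quantile normalization Hdac3 was called lower with purified TGFβ (-0.53) and Ncoa3 with platelet TGFβ (-0.57). These 3 genes are outside the rule for named genes. Tbl1xr1, part of the corepressor complex that unliganded receptors recruit, read 7.13, 7.28 and 7.46 in Tconv, 9.23, 9.36 and 9.26 with purified TGFβ and 8.79, 8.80 and 8.81 with platelet TGFβ. It rose by 2.00 and 1.52 (SE 0.09 in each, adjusted p = 1.57e-08 and 1.50e-07), and 4 of its 5 other probe sets were called higher too.

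Nrip1, a corepressor that binds receptors with their ligand and is itself induced by retinoic acid, rose by 1.22 and 0.80, and 4 of its 5 other probe sets also rose. Ncoa2, a coactivator gene, rose by 0.89 and 0.82 with its main probe set, but its 3 others ran from -0.12 to 0.17 with purified TGFβ, none called, and from -0.14 to 0.54 with platelet TGFβ, 1 called. Rxrb, the RXR of most tissues, was lower in both iTreg groups. It read 9.15, 9.27 and 9.43 in Tconv, 8.69, 8.74 and 8.70 with purified TGFβ and 8.46, 8.53 and 8.21 with platelet TGFβ, with changes of -0.58 and -0.88 (adjusted p = 0.000722 and 2.74e-05). Rxrg was called lower with purified TGFβ (-0.54, but -0.42 without Tconv replicate 1, -0.48 without purified replicate 3 and -0.48 with centred medians, none called). It averaged 4.96 in Tconv, 4.42 with purified and 4.48 with platelet TGFβ. The platelet fall of Rxrg was not called, but was without Tconv replicate 2 (-0.57) or platelet replicate 2 (-0.59). Ppard, outside the rule, was called lower with platelet TGFβ (-0.50). Its means were 5.82 in Tconv, 5.32 with purified and 5.31 with platelet TGFβ. The purified fall of Ppard was called after quantile normalization (-0.63) and without purified replicate 3 (-0.56). Its platelet call was lost without platelet replicate 3 (-0.31), without Tconv replicate 2 (-0.50), with centred array medians (-0.45) and with the mean of its probe sets (-0.31), the second of which was at -0.11.

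A list of genes that retinoic acid is known to induce, to which Nrip1 does not belong, held 6 measured genes. By main probe set 2 of the 6 were lower with purified TGFβ and 1 with platelet TGFβ, against 14.9% and 14.7% of all genes, and none was called higher, against 14.5% and 13.9%. Hic1, a repressor that retinoic acid induces in T cells, fell by 0.67 and 0.74 (SE 0.09 in each). The gut-homing genes were not called: Ccr9, the receptor for the gut chemokine CCL25, read 3.30 to 3.75 over all arrays, and the integrin genes Itga4 and Itgb7 changed by 0.28 and -0.03 with purified TGFβ and by -0.03 and -0.12 with platelet TGFβ. A second Itga4 probe set was called higher with purified TGFβ (0.51).

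Tgm2, which encodes the retinoic acid-induced transglutaminase 2, parted the iTreg groups. It read 6.81, 7.07 and 7.24 in Tconv, 5.26, 5.48 and 5.36 with purified TGFβ and 7.03, 7.04 and 6.90 with platelet TGFβ, so the platelet arrays lay within the Tconv range and the purified arrays below both. By its main probe set Tgm2 fell by 1.67 ± 0.11 with purified TGFβ (SE, adjusted p = 2.34e-07). With platelet TGFβ that probe set did not differ detectably from Tconv (-0.05 ± 0.11). It was 3.08-fold higher with platelet than with purified TGFβ (1.62 ± 0.11, adjusted p = 4.71e-06). In both of the called comparisons 4 of the 5 other Tgm2 probe sets were called in the same direction. The remaining one averaged 2.80 to 3.00 in the 3 groups. With platelet TGFβ against Tconv none of the 5 was called, and their changes ran from -0.45 to 0.16. The lowest was of a probe set at 5.99 to 6.10 in Tconv and 5.58 to 5.62 with platelet TGFβ. It read 4.72 to 5.13 with purified TGFβ, so its platelet arrays lay between the other groups. Its change of -0.45 ± 0.10 (SE, limma adjusted p = 0.00387) missed the fold cutoff.

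Beside Tgm2, Adh4 was higher (0.67, adjusted p = 0.0555) and Rdh12 lower (-0.50, adjusted p = 0.0801) with platelet than with purified TGFβ, both named to complete the count. Neither call held without platelet replicate 3 (Adh4 0.40, Rdh12 -0.40) or without any one of the purified replicates 1, 2 and 3, where Adh4 was at 0.71, 0.64 and 0.64 and Rdh12 at -0.48, -0.53 and -0.49. Rdh12 was not called without platelet replicate 2 either (-0.53), but its second probe set was called lower in the same comparison, by more (-0.73, adjusted p = 0.0317, arrays not overlapping).

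**Figure D4:**
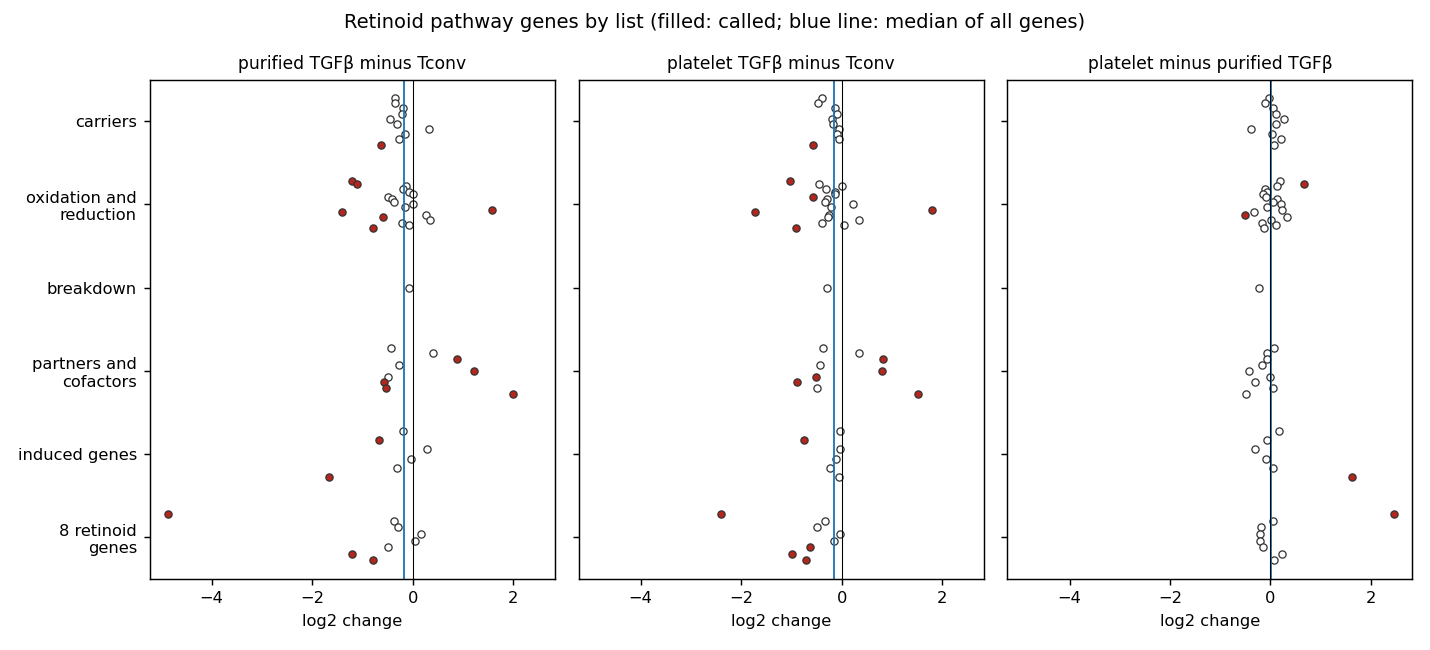
Log2 change (horizontal axis) of each measured gene of the 5 retinoid lists and of the 8 genes in 3 comparisons; filled points were called and the blue line is the median of all genes. In the left and middle panels most points sit below 0, as does the median of all genes at -0.17 and -0.16, and on the right Crabp2 (2.46) and Tgm2 (1.62) stand apart.

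What else set the groups apart bears on every value against Tconv. Xist read 10.63 to 10.94 in Tconv and 3.37 to 3.99 on all iTreg arrays, and Eif2s3y on the Y chromosome read 2.59 to 2.82 and 8.82 to 9.18, so the sex of the animals ran with the contrast and cannot be told apart from culture. Foxp3 read 3.66 to 3.90 on all 9 arrays, and whether its probe set was above background was not settled; among the other markers of regulatory T cells Il2ra, Ctla4 and Ikzf2 rose in both iTreg groups and Tnfrsf18 fell. Of 7 pan T genes 2 were lower in both iTreg groups, Cd4 (-0.72 and -0.62) and Cd5 (-0.84 and -0.59), and Cd2 was called higher with platelet TGFβ (0.52; 0.35 with purified TGFβ, not called); the list's medians were -0.37 and -0.42.

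Markers of other cells were read as whole lists, since in bulk RNA fewer cells of a type and less RNA per cell cannot be told apart. Beside these counts and those of the pan T genes, 14.5% of all genes were higher and 14.9% lower with purified TGFβ. With platelet TGFβ the shares were 13.9% and 14.7%. Of 8 myeloid and dendritic genes, by main probe set, none was called with purified TGFβ and 1 was lower with platelet TGFβ (Zbtb46, -0.51, with 1 of its 3 other probe sets lower by more in both, at -1.74 and -1.69). Of the 2 other Csf1r probe sets 1 was called lower with purified TGFβ (-0.53). The summed log2 levels of the 8 genes were 32.63 to 34.64 in Tconv, 30.82 to 31.96 on the purified-TGFβ arrays and 31.33 to 31.89 on the platelet ones. Of 4 B cell genes 1 was lower in both (Cd79b, -1.46 and -1.65), with sums of 17.49 to 17.92, 15.44 to 16.54 and 15.17 to 16.44. Of 5 platelet genes 1 was lower in both (Itga2b, -0.63 and -0.61), with sums of 23.09 to 23.97, 21.10 to 21.80 and 21.60 to 22.24. Of 6 epithelial and stromal genes 1 was higher with platelet TGFβ (Epcam, 1.49; its other probe set was not called), with sums of 25.17 to 25.69, 24.43 to 25.12 and 25.88 to 26.46. Epcam was also higher with platelet than with purified TGFβ (1.18), as were Crabp2 and Tgm2, and no other gene of these 4 lists was called there. The part of other cells in the member values was not tested.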

How the data were processed

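Per the series' design text, the authors made the deposited log2 expression values with Expression Console and RMA. That method removes background, is meant to even out the arrays and summarises each probe set. The deposited arrays were still not on 1 distribution. Their medians were 4.52 to 4.56 in Tconv and 4.46 to 4.50 in iTreg. Upper quartiles were 6.59 to 6.70 in Tconv and 6.86 to 6.95 in iTreg, so this gap ran with every comparison against Tconv. Shares of calls under other normalizations are given below. Folds near background are compressed by RMA. There were no detection calls, and with 3 arrays a group their number limits the precision. The authors tested with ANOVA in Partek Genomics Suite 6.6 per the same text.

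Of 45101 probe sets, 64 controls were left out. Names came from the platform annotation, where 34945 probe sets had 1 symbol, 932 several and 9160 none listed; all 8 members matched RefSeq (GRCm38.p6) by gene identifier. The symbols do not rest on a sequence match made here. A limma fit (limma 3.58.1, R 4.3.3) with a mean per group over 9 arrays gave every comparison, two-sided, with Benjamini-Hochberg adjustment over 45037 probe sets. The fit was checked on simulated data. An exact test of 3 against 3 cannot give a p under 0.1, so none was used. Tables and plots used Python 3.11.15.

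The members, lists and tests were chosen with earlier results of these data known. Named genes were all members, up to 5 called genes per retinoid list with the lowest adjusted p, 10 fixed pathway genes and the 3 closest profiles of each called member whose arrays did not overlap. Written list genes without a named probe set (7 of 52 retinoid genes) were not analysed here. Same-numbered replicates were not treated as pairs. Their deviations from group means correlated at -0.12 to 0.09 between Tconv and iTreg and at 0.09 to 0.26 between the iTreg groups. No such correlation was computed for arrays of unlike number, so a pairing of the iTreg groups was not settled.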

Additional observations from a re-analysis of the deposited data

How the results depend on the processing

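The members kept their counts of calls within 1.5 times under every alternative but one: at an adjusted p under 0.05 and 2-fold, 1 of 8 was called with platelet TGFβ against Tconv in place of 4. Without one array the counts of members ran from 3 to 4 with purified TGFβ, 4 to 5 with platelet TGFβ and stayed at 1 between the iTreg groups; those of the 45 list genes ran from 14 to 15, 12 to 14 and 1 to 3. At 2-fold the list calls were 7 with purified TGFβ, 4 with platelet TGFβ and 1 between the iTreg groups. The mean of all probe sets of a gene left 7 list calls with platelet TGFβ, and the unmoderated contrast and an adjusted p under 0.05 each left 1 between the iTreg groups. No called value of a member or list gene reversed. With the replicate number as a block, members called numbered 3, 4 and 1 and list genes 14, 12 and 2 in the 3 comparisons; the block changed no call of a member and ended that of Rdh12 between the iTreg groups (adjusted p = 0.117). The share of all called genes that were higher was 49.3% with purified TGFβ and 48.5% with platelet TGFβ, and 38.6% and 38.4% after quantile normalization. With centred array medians they were 56.5% and 55.3%. Readings near the bottom of the scale (Rarb, Crabp1, Aldh1a1, Aldh1a2, Ccr9) set no limit on transcripts below background.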

Other observations

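RXRα also pairs with receptors for other ligands, and these were read from a list of 13 written after the data were seen, of which 12 were measured. With purified TGFβ 1 was higher and 3 were lower than Tconv, with platelet TGFβ 3 were lower, and between the iTreg groups 2 were higher and 1 lower with platelet TGFβ. Over all genes 14.5% were higher and 14.9% lower with purified TGFβ, 14.7% lower with platelet TGFβ, and 1.54% higher and 2.57% lower between the iTreg groups. Vdr, the vitamin D receptor gene, averaged 4.73 in Tconv, 5.47 with purified TGFβ and 4.70 with platelet TGFβ, a difference of -0.77 ± 0.14 (SE, limma adjusted p = 0.00699) between the iTreg groups; its other probe set was called lower there too (-0.57). Thra, a thyroid hormone receptor gene, fell by 0.93 and 1.01 against Tconv, and its 2 other probe sets fell as well. Nr4a1 and Nr4a2, early genes of T cell receptor signaling, averaged 11.02 and 7.14 in Tconv, 9.76 and 5.78 with purified TGFβ and 10.29 and 7.40 with platelet TGFβ, with differences of 0.54 and 1.61 between the iTreg groups (adjusted p = 0.00573 and 2.72e-07). Of the 5 other Nr4a2 probe sets 2 were called higher there, and the 5 ran from 0.01 to 2.02. Nr4a1, like Crabp2, lay between the other groups with platelet TGFβ.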
